A study of Mus musculus with 9 samples.

Results

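The interferon-gamma-inducible GTPases described here are 10 mouse genes taken by name from the deposited gene table: the guanylate-binding protein genes Gbp2, Gbp3, Gbp4, Gbp6, Gbp7 and Gbp9, and the immunity-related GTPase genes Igtp, Irgm1, Irgm2 and Iigp1. They were 10 of the 35288 gene identifiers listed, and all 10 passed the filter on low counts that left 13697 genes for testing. Their rounded counts lay between 848 and 13737 in every library, so counting error was small for each of them. The genes were measured by RNA-seq in T15, a murine Smarcb1-negative peripheral T-cell lymphoma (PTCL) cell line, in 3 libraries each of control cells, of cells given the histone deacetylase inhibitor SAHA (1 µM, given repeatedly over 72 h) and of Smarcb1-RE cells. Smarcb1-RE cells carry a Smarcb1 cDNA in the doxycycline-inducible lentiviral plasmid pInducer20 (pInd20 in the labels), were selected with G418 and received doxycycline (0.5 µg/µl) for 72 h. Smarcb1 is a core subunit of the SWI/SNF chromatin remodelling complex. The study reports that most cells died by apoptosis at the SAHA concentration sequenced, and that re-expression left viability unchanged. Whether values in SAHA libraries reflect dying or surviving cells was not tested. The sources describe the controls variously as untreated, as given vehicle and as carrying a control plasmid, and no label says which holds for the 3 control libraries. Transduction, G418 and doxycycline can therefore not be told apart from Smarcb1 itself in the Smarcb1-RE comparison, and all results come from 1 cell line. The study made several stable clones, and no label says whether the 3 Smarcb1-RE libraries come from 1 clone or more. Traits of a clone can likewise not be told apart from Smarcb1 itself.

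Guanylate-binding proteins and immunity-related GTPases are made in quantity by cells exposed to interferon-gamma, which signals through its receptor and the Jak-Stat pathway. They act on the membranes of vacuoles that hold bacteria and parasites, and some guanylate-binding proteins also promote inflammasome signalling. Among the immunity-related GTPases, Igtp, Irgm1 and Irgm2 are regulators that sit on the cell's own membranes and hold effectors such as Iigp1 inactive, while effectors gather on the foreign vacuole. Their promoters are known for a pair of motifs, the gamma-activated site (GAS) and the interferon-stimulated response element (ISRE), the latter bound by interferon regulatory factors.

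The members lie in gene clusters (GRCm38, GENCODE gene models). Gbp2 (chr3:142620602-142638008), Gbp3 (chr3:142560026-142573209) and Gbp7 (chr3:142530342-142550149) are on the plus strand of chromosome 3. Gbp4 (chr5:105115767-105139586), Gbp6 (chr5:105270702-105293698) and Gbp9 (chr5:105077630-105139539) are on the minus strand of chromosome 5, and the Gbp4 and Gbp9 models overlap. Igtp (chr11:58199556-58207591, plus strand) lies within the Irgm2 model (chr11:58199618-58222782, plus strand) for most of its length. Irgm1 (chr11:48861968-48871683, minus strand) belongs to a separate, proximal cluster of chromosome 11, and Iigp1 (chr18:60376027-60392634, plus strand) to a cluster of chromosome 18. All 10 are protein-coding.

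Promoter sequence from RefSeq (GRCm38.p6) could be shown for 6 of the 10 members, and each of the 6 held at least 1 ISRE core in the 250 bases before its RefSeq start. The ISRE core was searched as GAAA, any 2 bases and GAAA, and the GAS as TTCNNNGAA, both on either strand, and a match is a description of letters only. Across all 32851 RefSeq windows of the same length, 2.98% held the ISRE core and 7.02% held the GAS. Gbp3 has a second RefSeq start whose window held neither. The stretches with the matches are shown because they are the part of the promoter that interferon-activated factors are known to read. Letters are on the strand of the gene, and capitals mark the GAS and the ISRE core, which reads TTTC, any 2 bases and TTTC where it lies on the other strand. The GENCODE models start earlier than the RefSeq ones for some genes: the Gbp2 stretch lies in the GENCODE first exon from just before its ISRE core, and the Irgm1 and Irgm2 stretches lie wholly inside their models.

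Igtp, chr11:58199496-58199546, plus strand: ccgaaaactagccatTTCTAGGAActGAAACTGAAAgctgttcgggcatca
Irgm2, chr11:58214887-58214937, plus strand: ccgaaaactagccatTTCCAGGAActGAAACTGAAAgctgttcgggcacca
Irgm1, chr11:48871421-48871465, minus strand: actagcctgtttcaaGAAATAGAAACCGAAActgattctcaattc
Gbp2, chr3:142620589-142620628, plus strand: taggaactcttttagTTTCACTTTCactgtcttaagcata
Gbp3, chr3:142559984-142560029, plus strand: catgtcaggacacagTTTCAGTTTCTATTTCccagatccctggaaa
Gbp7, chr3:142530215-142530307, plus strand: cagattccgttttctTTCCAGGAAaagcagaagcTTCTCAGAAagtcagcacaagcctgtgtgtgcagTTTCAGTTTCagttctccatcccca

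Igtp and Irgm2 carried the same arrangement, a GAS followed after 2 bases by the ISRE core. Tgtp1 and Tgtp2, effector GTPases of the proximal chromosome 11 cluster that are not among the 10, also had 2 bases between the motifs. Ifi47, 9930111J21Rik1 and 9930111J21Rik2 of the same cluster held neither motif. Of 8 interferon-inducible GTPase genes outside the 10 with a window, 5 held an ISRE core and 4 held a GAS. Gbp7 held 2 GAS matches and 1 ISRE core. Irgm1 and Gbp3 each held 2 overlapping ISRE cores and no GAS, and Gbp2 held 1 ISRE core and no GAS.

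Smarcb1 itself was counted in every library as a check of the labels. Control libraries held 2, 5 and 8 rounded counts of it, SAHA libraries 7, 13 and 3, and Smarcb1-RE libraries 151, 147 and 142, among total counts of 20900424 to 24941408 per library. The Smarcb1-RE libraries stood apart from both other groups, which overlapped each other. Of 11 T-cell markers, 9 were tested, and their summed level was 3393 to 3583 CPM (read counts scaled to a common library size, a unit of relative abundance) in control, 3455 to 3519 in SAHA and 4249 to 4321 in Smarcb1-RE libraries. The higher sum after re-expression was carried by Ptprc, whose mean was 641 CPM in control cells and 1641 CPM in Smarcb1-RE cells. Most of the tested T-cell markers did not follow it: 5 fell with Smarcb1-RE and 2, Ptprc and Lck, rose. Cd2 and Cd5 stayed at or under 3 counts in every library. Summed markers of macrophages, which make these GTPases in abundance, were at 2.07 to 2.59 CPM in control, 5.71 to 7.45 in SAHA and 1.85 to 1.96 in Smarcb1-RE libraries, with 5 of 8 at or under 3 counts throughout and Cd68 carrying most of the sum. B-cell markers summed to 92.6 to 95.9, 101 to 112 and 154 to 163 CPM in the same order, with 2 of 6 at or under 3 counts throughout. Fibroblast markers summed to 6.29 to 8.84, 6.80 to 7.06 and 66.4 to 68.6 CPM, most of it Pdgfra, with 3 of 6 at or under 3 counts. The part of other cell types in the results was not tested. In bulk RNA, fewer cells that express a gene and less RNA per cell cannot be told apart.

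SAHA raised 8 of the 10 members and lowered none (edgeR quasi-likelihood test, Benjamini-Hochberg adjusted p under 0.05). Irgm1 was the only member with a negative value, and none was called lower by DESeq2 either. This stands beside 32.6% of all tested genes called higher and 34.3% called lower in the same comparison. The median log2 fold change of the 10 was 0.73, against 0.00 over all tested genes. Iigp1, Gbp6, Gbp2 and Gbp4 changed by about a doubling or more, while Gbp3 and Irgm1 were not called. The plot of levels by library shows all 9 values of each gene, as CPM scaled by edgeR's TMM factors.

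**Figure D1:**
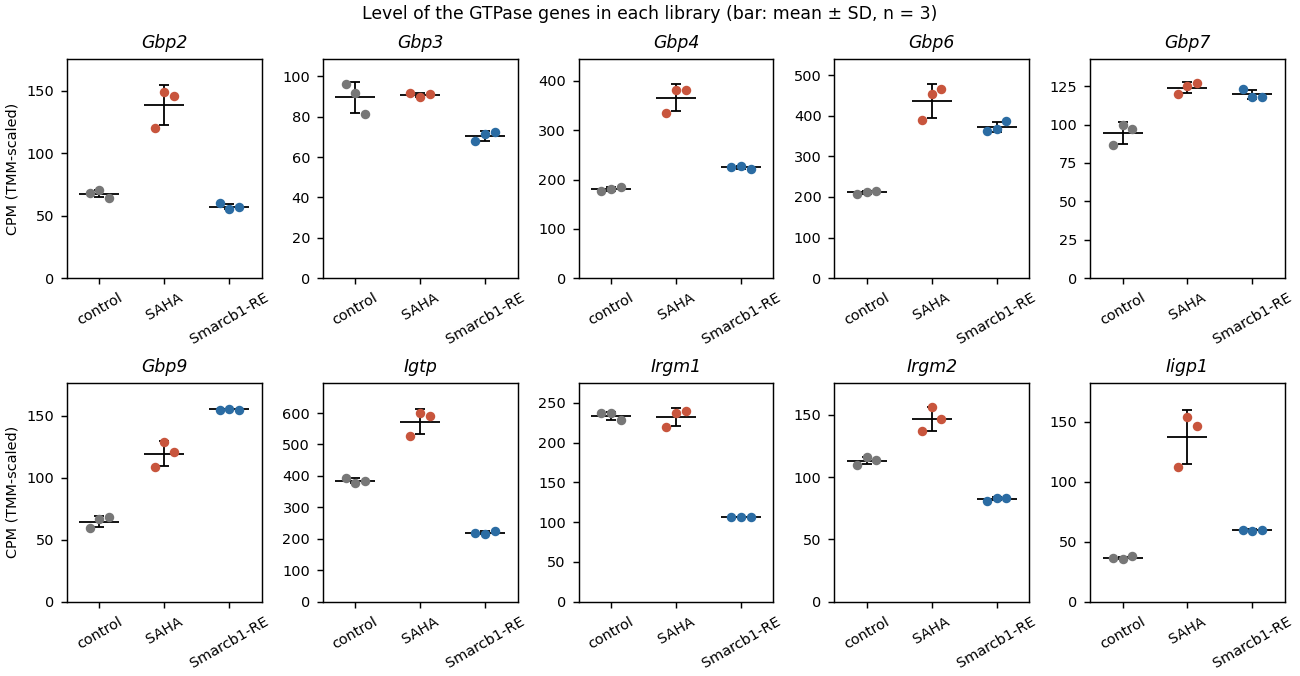
TMM-scaled CPM (vertical axis, from 0) of the 10 members in each of 9 libraries, with points for libraries and bars for the mean and SD of 3. SAHA points lie above control points for 8 genes and overlap them for Gbp3 and Irgm1. Smarcb1-RE points lie above control for Gbp4, Gbp6, Gbp7, Gbp9 and Iigp1 and below it for the other 5. The share of all tested genes with such separation is not given here, so separation alone sets no member apart.

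Smarcb1-RE divided the members evenly: 5 were higher and 5 lower than in control by the same test, beside 39.2% of all tested genes called higher and 38.6% called lower. With most tested genes called, a call alone sets no gene apart here, and the sizes and directions carry the description. Their log2 fold changes ran from -1.13 to 1.26, with a median of 0.04 against 0.01 over all tested genes. Gbp4, Gbp6, Gbp7, Gbp9 and Iigp1 were higher, and Gbp2, Gbp3, Igtp, Irgm1 and Irgm2 were lower. Both comparisons use the same 3 control libraries, so the direct contrast of Smarcb1-RE with SAHA is the test of how they differ. In that contrast 1 member was higher in Smarcb1-RE (Gbp9), 8 were lower and Gbp7 was not called, beside 37.8% of all genes called higher and 36.8% called lower.

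The membrane-bound regulators were the members that fell furthest with Smarcb1-RE. Irgm1, which is needed for autophagic control of mycobacteria in mice, stood at 237, 237 and 228 CPM in control and at 220, 238 and 240 CPM in SAHA libraries. In all 3 Smarcb1-RE libraries Irgm1 was at 107 CPM. The Smarcb1-RE libraries were thus far below the other 6, and control and SAHA libraries overlapped. The log2 fold change of Irgm1 was -1.13 (SE 0.042, adjusted p = 1.51e-10 by edgeR) with Smarcb1-RE and -0.01 with SAHA, where the 95% interval ran from -0.10 to 0.08 (adjusted p = 0.881).

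Igtp, also called Irgm3, had the most counts of all members in control cells. Control libraries held 393, 379 and 384 CPM of Igtp, SAHA libraries 526, 601 and 591 CPM, and Smarcb1-RE libraries 219, 216 and 224 CPM. The 3 groups did not overlap and lay in the order SAHA, control, Smarcb1-RE. Igtp rose with SAHA by 0.57 on the log2 scale (SE 0.049, adjusted p = 5.82e-07) and fell with Smarcb1-RE by 0.81 (SE 0.050, adjusted p = 1.15e-08), so that the direct contrast of -1.38 was the largest of any member.

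Irgm2, the third regulator, had the same order of groups in smaller steps. It was at 110, 116 and 114 CPM in control, 137, 156 and 147 CPM in SAHA and 81.1, 83.5 and 83.2 CPM in Smarcb1-RE libraries, again without overlap. Its log2 fold change was 0.37 with SAHA (SE 0.048, adjusted p = 1.88e-05) and -0.46 with Smarcb1-RE (SE 0.049, adjusted p = 2.41e-06). The Irgm2 and Igtp models overlap, and 16.4% of the 31-base words of the Igtp transcript also occur in Irgm2, so reads could be divided between them. Summed over Igtp, Irgm1 and Irgm2, the level fell with Smarcb1-RE by 0.84 on the log2 scale and rose by 0.38 with SAHA, whichever way reads were divided.

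Iigp1, the only effector of the immunity-related GTPases among the 10, moved with SAHA more than any other member. It was at 36.5, 35.8 and 37.7 CPM in control, 112, 154 and 146 CPM in SAHA and 59.7, 58.5 and 60.0 CPM in Smarcb1-RE libraries. Every SAHA library was above every Smarcb1-RE library, which in turn were above control, and the SAHA libraries were the most spread (coefficient of variation 16.5%). Iigp1 rose 3.74-fold with SAHA (log2 fold change 1.90, SE 0.097, adjusted p = 7.63e-09) and 1.62-fold with Smarcb1-RE (0.70, SE 0.099, adjusted p = 3.11e-05).

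The regulators and Iigp1 therefore had opposite signs in Smarcb1-RE cells: all 3 regulators fell while the effector rose. The other effectors were not of one direction with Smarcb1-RE, where Gm4841 and F830016B08Rik, neighbours of Iigp1, rose (1.00 and 1.99) and others fell. Tgtp1 and Tgtp2 share over 90% of their sequence words, 92.9% of those of Tgtp1 occurring in Tgtp2, and their summed level was 101, 90.4 and 92.1 CPM in control, 155, 192 and 187 CPM in SAHA and 75.8, 75.4 and 75.1 CPM in Smarcb1-RE libraries. The sum rose with SAHA by 0.91 on the log2 scale and fell with Smarcb1-RE by 0.33 (adjusted p = 0.00122). Gm12250, known as Irgb10 and listed as a processed pseudogene in the annotation, rose slightly with SAHA (0.19, adjusted p = 0.0177, not called without control 3, SAHA 2 or SAHA 3, at 0.14 to 0.17) and fell with Smarcb1-RE (-0.53, adjusted p = 6.93e-06).

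The 3 members of the chromosome 5 Gbp cluster rose under both conditions, but Gbp9 was the only member that was higher in Smarcb1-RE than in SAHA cells. Gbp9 was at 59.8, 66.5 and 68.0 CPM in control, 109, 129 and 121 CPM in SAHA and 155, 156 and 155 CPM in Smarcb1-RE libraries. The 3 groups were separate, and the Smarcb1-RE libraries were within 1 CPM of each other. Gbp9 rose 1.85-fold with SAHA (log2 fold change 0.88, SE 0.063, adjusted p = 1.04e-07) and 2.40-fold with Smarcb1-RE (1.26, SE 0.063, adjusted p = 1.56e-09), and the direct contrast was 0.38 (SE 0.060, adjusted p = 8.65e-05).

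Gbp6 was at 208, 211 and 214 CPM in control, 389, 453 and 466 CPM in SAHA and 362, 368 and 386 CPM in Smarcb1-RE libraries. Both treated groups were well above control, and SAHA 1 was only just above the highest Smarcb1-RE library. Its log2 fold change was 1.05 (SE 0.060) with SAHA and 0.81 (SE 0.060) with Smarcb1-RE, and the direct contrast of -0.23 passed the test (adjusted p = 0.00329). Most of the Gbp6 transcript is shared: 64.4% of its 31-base words occur elsewhere, most of them in Gm43302, an overlapping gene model listed at 0 in 5 of the 9 libraries and at 84 to 240 counts in the other 4. The division of reads between these genes is uncertain, and Gbp6 values carry that limit.

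Gbp4 showed the greatest imbalance of the 3 in favour of SAHA. Control libraries were at 176, 181 and 184 CPM, SAHA libraries at 334, 382 and 381 CPM and Smarcb1-RE libraries at 226, 227 and 222 CPM. Groups did not overlap, and Gbp4 rose by 1.02 on the log2 scale with SAHA (SE 0.051, adjusted p = 7.32e-09) and by 0.32 with Smarcb1-RE (SE 0.051, adjusted p = 8.31e-05).

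The other genes of the chromosome 5 cluster were nearer to Gbp9 than to Gbp4 and Gbp6 in the direct contrast: Gbp8, Gbp10 and Gbp11 were also higher in Smarcb1-RE than in SAHA cells (0.21, 0.54 and 1.57). Of 6 family genes there, all 6 rose with Smarcb1-RE, by 0.32 to 2.27 on the log2 scale, and 5 rose with SAHA, where Gbp11 was not called (0.33, adjusted p = 0.200). Gbp10 was at 31.5, 33.8 and 34.9 CPM in control, 102, 119 and 111 CPM in SAHA and 156, 160 and 166 CPM in Smarcb1-RE libraries, although 88.8% of its sequence words are shared with other genes. Summed over the 6 genes the level was 521 to 546 CPM in control, 1014 to 1173 in SAHA and 1001 to 1032 in Smarcb1-RE libraries. The sum rose by 1.07 with SAHA and by 0.93 with Smarcb1-RE on the log2 scale (SE 0.053 for both), and with Gm43302 added to the sum these were again 1.07 and 0.93. The direct contrast of the sums, -0.14 (95% interval -0.25 to -0.02, adjusted p = 0.0299), was -0.13 with Gm43302 and was lost without SAHA 2 or SAHA 3 (-0.11 in either case) or without any Smarcb1-RE library (-0.14, -0.14 and -0.15). Tested genes outside the family within 1 Mb of the cluster numbered 10, of which 6 rose and 1 fell with Smarcb1-RE, with a median log2 fold change of 0.17. The shares over all tested genes were 39.2% higher and 38.6% lower.

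The chromosome 3 members did not move together. Gbp2, which is recruited to parasite vacuoles, was at 67.7, 70.5 and 64.4 CPM in control, 120, 149 and 146 CPM in SAHA and 59.7, 55.1 and 56.9 CPM in Smarcb1-RE libraries. SAHA libraries were about double the rest, and the Smarcb1-RE libraries lay just below the control libraries. Gbp2 rose 2.05-fold with SAHA (log2 fold change 1.04, SE 0.074, adjusted p = 1.06e-07) and fell slightly with Smarcb1-RE (-0.24, SE 0.077, adjusted p = 0.0124), a fall that was not called when libraries were scaled by their totals alone (-0.08, adjusted p = 0.346).

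Gbp3 was the only guanylate-binding protein gene among the 10 that was not called with SAHA. It was at 96.1, 91.6 and 81.2 CPM in control, 91.6, 89.9 and 91.5 CPM in SAHA and 67.8, 71.5 and 72.3 CPM in Smarcb1-RE libraries. SAHA values fell inside the control range, and the Smarcb1-RE values were all below it. The log2 fold change of Gbp3 was 0.02 with SAHA (95% interval -0.10 to 0.14, adjusted p = 0.748) and -0.35 with Smarcb1-RE (SE 0.057, adjusted p = 1.06e-04).

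Gbp7, which takes part in assembly of the phagocyte NADPH oxidase, was the member on which the treatments differed least. Its levels were 86.7, 99.9 and 97.2 CPM in control, 120, 125 and 127 CPM in SAHA and 123, 118 and 118 CPM in Smarcb1-RE libraries. Both treated groups were above control and overlapped each other. Gbp7 rose by 0.39 with SAHA (SE 0.052, adjusted p = 2.55e-05) and by 0.34 with Smarcb1-RE (SE 0.052, adjusted p = 6.15e-05), and the direct contrast was -0.05 with a 95% interval of -0.16 to 0.06.

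Gbp5, the inflammasome-linked neighbour of these genes, rose by 1.20 with SAHA and by 0.27 with Smarcb1-RE, and Gbp2b, at 0 in all control and Smarcb1-RE libraries, was not tested. Summed over Gbp2, Gbp2b, Gbp3, Gbp5 and Gbp7, the level was 317 to 344 CPM in control, 499 to 542 in SAHA and 331 to 343 in Smarcb1-RE libraries. The sum rose with SAHA by 0.69 on the log2 scale, and with Smarcb1-RE the log2 fold change was 0.05 (95% interval -0.05 to 0.15, adjusted p = 0.345).

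The plot of fold changes by chromosomal cluster sets the 10 members among 17 other interferon-inducible GTPases, of which 16 were tested. With SAHA 13 of the 16 rose and 1, Ifi47, fell, with a median log2 fold change of 1.06, and leaving out single libraries gave 11 to 13 and 0 to 1. With Smarcb1-RE 10 rose and 3 fell, with a median of 0.69. All tested genes were called higher in 32.6% and lower in 34.3% with SAHA, and in 39.2% and 38.6% with Smarcb1-RE. In the distal chromosome 11 cluster Igtp, Irgm2 and, less firmly, Gm12250 rose with SAHA and all 3 fell with Smarcb1-RE. Tested genes outside the family within 1 Mb of it numbered 26, of which 2 rose and 14 fell with SAHA and 8 rose and 15 fell with Smarcb1-RE. In the chromosome 18 cluster all 4 genes rose with SAHA and 3 rose with Smarcb1-RE, and Gm4951 was not called there (0.27, adjusted p = 0.154). Ifi47, an immunity-related GTPase of the proximal chromosome 11 cluster, fell with Smarcb1-RE (-0.60, adjusted p = 7.55e-06). With SAHA its value was -0.20 (adjusted p = 0.0277), but control and SAHA libraries overlapped (96.6 to 119 and 88.3 to 99.1 CPM), and the call was lost without control 1, SAHA 1 or SAHA 2 (-0.12 to -0.20). The largest changes were those of Mx1 and Mx2, antiviral GTPases that answer mainly to type I interferon, but from control levels of at most 0.507 CPM, with Mx2 at 1 count in control 3, under the floor of 3 counts. Mx1 rose by 2.77 with SAHA and 3.71 with Smarcb1-RE on the log2 scale, and Mx2 by 4.30 and 4.35, values that ran from 3.83 to 4.85 when single libraries were left out.

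**Figure D2:**
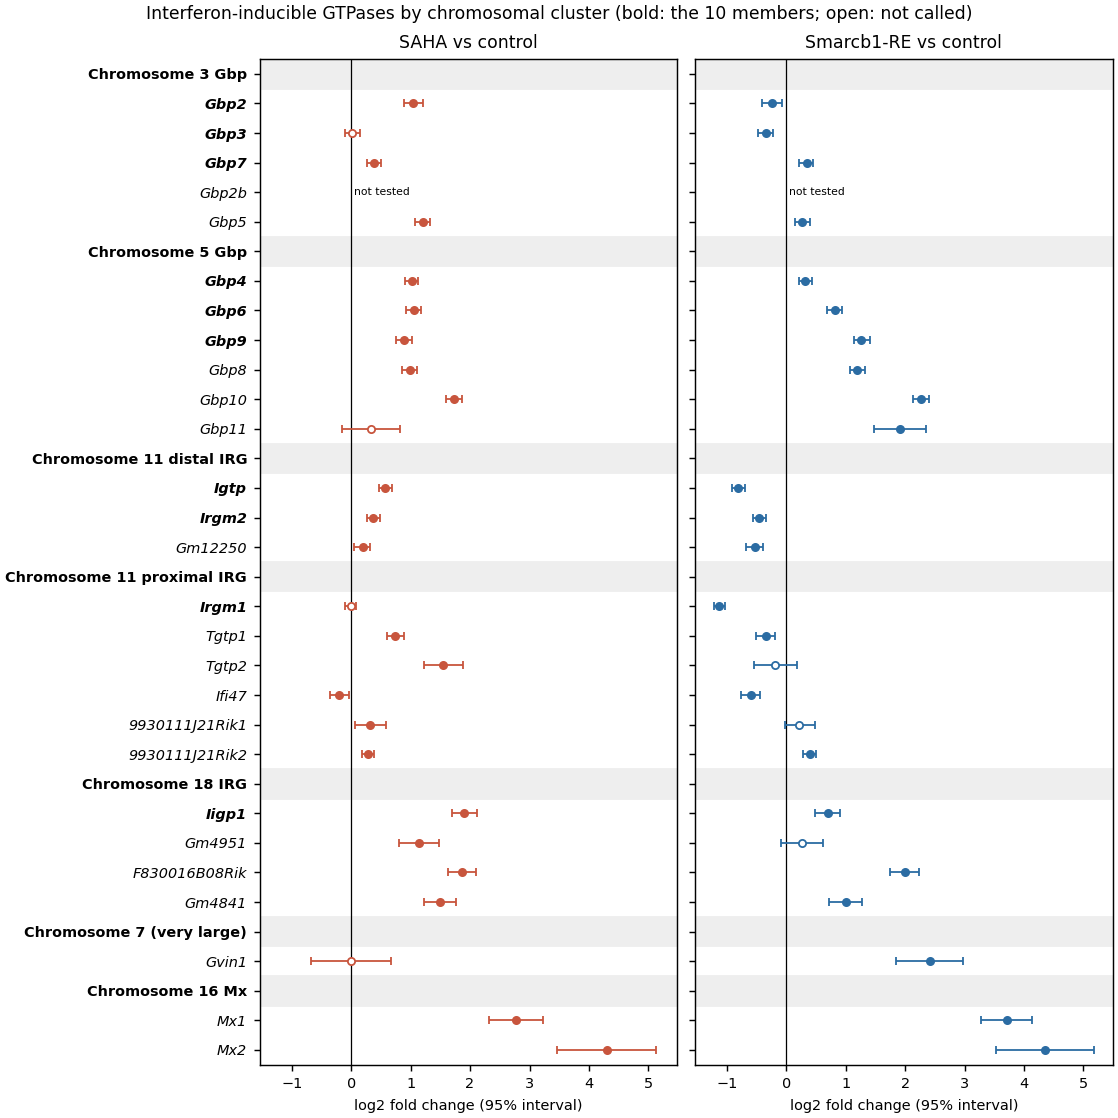
Log2 fold change against control (horizontal axis) with its 95% interval for each GTPase gene, grouped by chromosomal cluster, for SAHA (left) and Smarcb1-RE (right); filled points passed the test, open points did not, and the 10 members are in bold. Under Smarcb1-RE the chromosome 5 genes all lie right of 0 and the distal chromosome 11 genes all lie left of it, while under SAHA both clusters lie mainly to the right.

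Between genes, levels were compared only per kilobase of exon. Igtp was the highest member in every group, at 191 ± 3.56 CPM per kb in control, 283 ± 20.2 in SAHA and 109 ± 2.05 in Smarcb1-RE cells (SD, n = 3). Below it in control came Irgm1 (40.3 ± 0.927), Gbp6 (35.5 ± 0.470) and Irgm2 (30.7 ± 0.839), and last came Iigp1 (6.30 ± 0.163). Only Gbp3 and Gbp2 among neighbours in this order overlapped in control. In Smarcb1-RE cells Irgm1 dropped from the second to the ninth place (18.4 ± 0.0350), and Gbp9 moved from the ninth to the third (30.1 ± 0.173), where it overlapped Gbp4. The neighbours Gbp2, Irgm2, Gbp3 and Gbp7 also overlapped in Smarcb1-RE cells, each with the next. In SAHA cells the overlapping neighbours were Gbp2 and Gbp4, Irgm1 and Irgm2, and Iigp1, Gbp9 and Gbp7. With the length of the longest transcript in place of the union of exons Irgm1 was the fifth in Smarcb1-RE cells and Gbp9 the fourth, and Igtp stayed first in all groups.

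**Figure D3:**
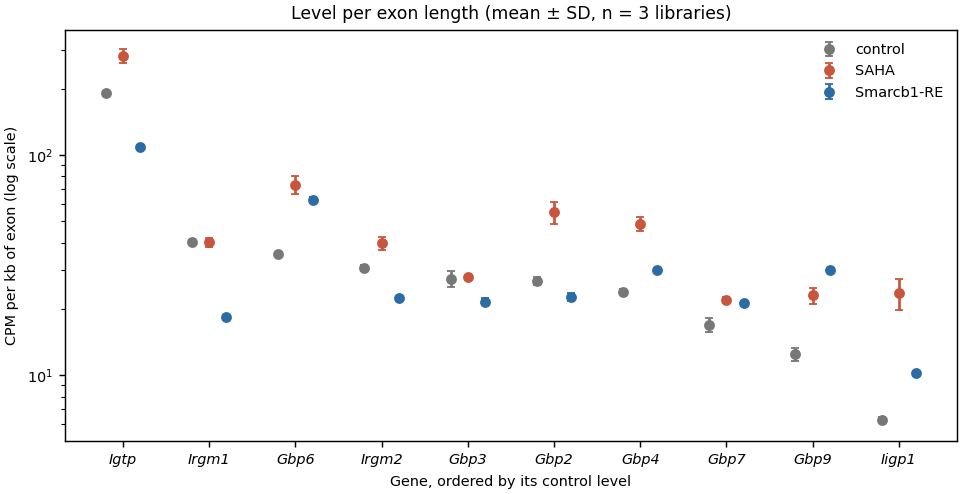
Level of each member per kilobase of exon (TMM-scaled CPM per kb, log scale) as mean and SD of 3 libraries in control (grey), SAHA (red) and Smarcb1-RE (blue), with genes ordered by their control level. Igtp is highest in every group, Irgm1 falls from 40.3 in control to 18.4 in Smarcb1-RE, and Iigp1 rises from 6.30 in control to 23.6 in SAHA.

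Some genes upstream of the members, such as Ifng and Irf8, separated the treatments, while others, such as Stat2, Irf7 and Usp18, rose under both. Of 7 genes for the ligand, its receptors and Jak-Stat signalling, 5 rose and none fell with SAHA, and 2 rose and 2 fell with Smarcb1-RE (5 and 1 with scaling by library totals). Over all tested genes 32.6% were called higher and 34.3% lower with SAHA, and 39.2% and 38.6% with Smarcb1-RE. These shares also stand beside the counts of regulatory factors below. Ifng, which encodes interferon-gamma, was at 25.7, 22.3 and 22.2 CPM in control, 166, 183 and 175 CPM in SAHA and 25.0, 23.8 and 26.5 CPM in Smarcb1-RE libraries. SAHA libraries were far above the other 6, which overlapped. Ifng rose 7.47-fold with SAHA (log2 fold change 2.90, SE 0.064, adjusted p = 5.39e-11), and with Smarcb1-RE its log2 fold change was 0.10 (95% interval -0.05 to 0.26, adjusted p = 0.199), which became a call only without control 1 (0.17). Whether T15 cells secreted the protein or answered to it was not measured here.

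Stat2, which acts with Irf9 at the ISRE, rose by 1.65 with SAHA and by 0.67 with Smarcb1-RE. Jak2 rose by 0.94 with SAHA and fell by 0.15 with Smarcb1-RE (adjusted p = 0.0102), a fall that became 0.01 in the other direction with scaling by library totals. The receptor gene Ifngr1 rose with both (0.86 and 0.37), while Ifngr2 fell with Smarcb1-RE (-0.45) and was not called with SAHA (0.05, adjusted p = 0.684).

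Among the interferon regulatory factors all 5 tested rose with SAHA, and 3 rose and 1 fell with Smarcb1-RE. The first count was 4 without control 1, any SAHA library, Smarcb1-RE 1 or Smarcb1-RE 2, since Irf2 (0.17, adjusted p = 0.0335) was then not called. Irf1, an interferon-induced activator of GTPase promoters, was at 216, 212 and 206 CPM in control, 345, 370 and 361 CPM in SAHA and 227, 226 and 224 CPM in Smarcb1-RE libraries. It rose by 0.76 with SAHA. With Smarcb1-RE its value was 0.09 (adjusted p = 0.0424), a call lost on leaving out any library but control 1 (0.06 to 0.10), which made the count of factors that rose 2. Irf7, a factor of the type I interferon response, rose under both, by 3.50 and 4.22 on the log2 scale, from 1.19 to 1.94 CPM in control. Irf8, which binds ISRE sites with partners, moved in opposite directions: it rose by 2.56 with SAHA and fell by 2.73 with Smarcb1-RE, where it was at 0.341 to 0.531 CPM against 2.68 to 3.30 CPM in control.

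Inhibitors of the pathway went both ways. Of 9 tested, 4 rose and 4 fell with SAHA, and 3 rose and 4 fell with Smarcb1-RE. This stands beside 32.6% of all tested genes called higher and 34.3% lower with SAHA, and 39.2% and 38.6% with Smarcb1-RE. Socs1, the main inhibitor of Jak kinases after interferon-gamma, fell with both, by 0.46 with SAHA (adjusted p = 4.29e-04) and by 1.24 with Smarcb1-RE (adjusted p = 6.30e-08). Its levels were 14.1 to 15.4 CPM in control, 9.76 to 11.6 CPM in SAHA and 5.99 to 6.91 CPM in Smarcb1-RE libraries. Whether the level of Socs1 bears on the members, of which 5 rose and 5 fell with Smarcb1-RE, was not tested. Socs3, a related inhibitor, rose by 1.79 with SAHA and was not called with Smarcb1-RE (-0.18, adjusted p = 0.0693) except without SAHA 1 (-0.19). Usp18, which restrains type I interferon signalling, rose by 2.41 with SAHA and by 2.43 with Smarcb1-RE, from a low control level of 0.422 to 0.68 CPM (10 to 16 counts).

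**Figure D4:**
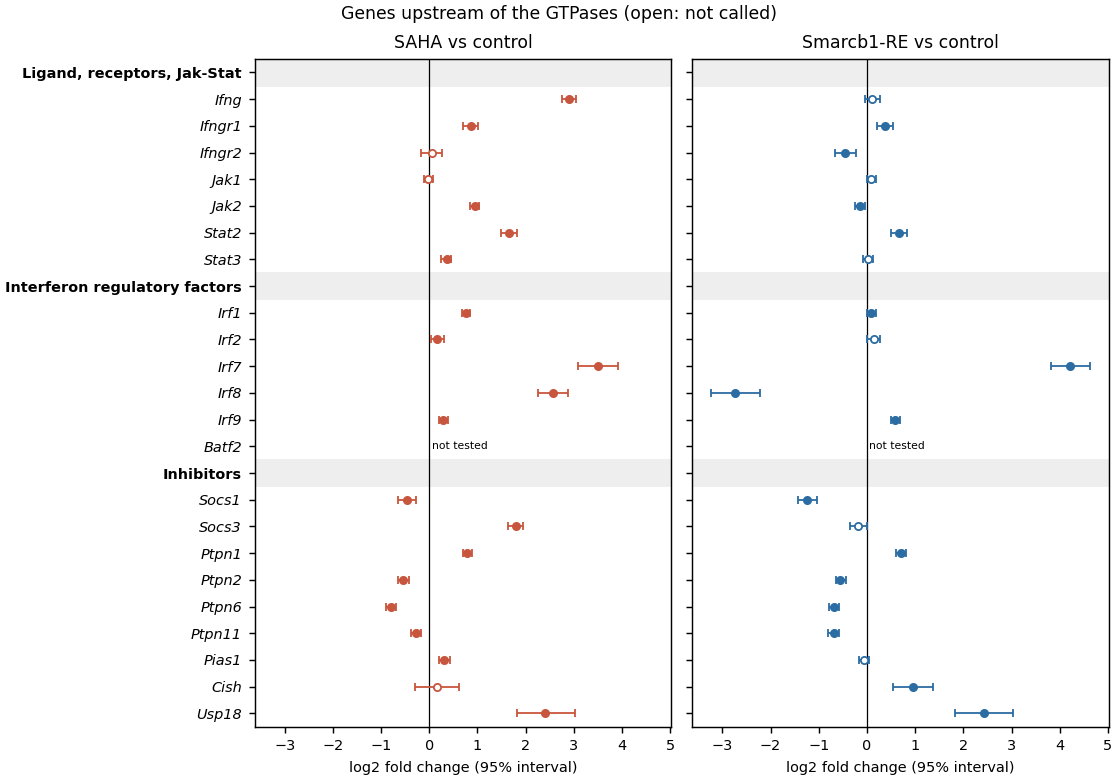
Log2 fold change against control (horizontal axis) with its 95% interval for the ligand, receptors and Jak-Stat genes, the interferon regulatory factors and the inhibitors, for SAHA (left) and Smarcb1-RE (right); filled points passed the test and open points did not. Ifng lies at 2.90 with SAHA and at 0.10 with Smarcb1-RE, and Irf8 lies on opposite sides of 0.

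Other targets of interferon-gamma were mixed as well: 8 of 17 tested rose and 4 fell with SAHA, and 8 rose and 6 fell with Smarcb1-RE. The list held 22 genes, and those not tested did not pass the filter on low counts. The shares of all tested genes were 32.6% higher and 34.3% lower with SAHA, and 39.2% and 38.6% with Smarcb1-RE. The chemokine gene Cxcl10 was at 63.0, 62.3 and 64.1 CPM in control, 147, 157 and 158 CPM in SAHA and 16.1, 15.0 and 15.8 CPM in Smarcb1-RE libraries. It thus rose by 1.29 with SAHA and fell by 2.01 with Smarcb1-RE, which made it the target gene with the greatest fall in that comparison. The inflammatory caspase genes Casp1 and Casp4, whose products act downstream of some guanylate-binding proteins, rose with Smarcb1-RE by 4.04 and 3.87. With SAHA Casp4 rose by 0.84 and Casp1 was not called (-0.13, adjusted p = 0.476). Icam1, an adhesion molecule, rose by 1.00 with SAHA, and Psmb10, a subunit of the immunoproteasome, fell by 1.73 with SAHA.

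The machinery that loads these GTPases onto vacuoles, made up of the autophagy conjugation proteins, their ubiquitin-like substrates and ubiquitin factors, changed little with SAHA. With SAHA 6 of 14 genes rose and 3 fell, within -0.21 to 0.51 on the log2 scale. Of all tested genes 32.6% were called higher and 34.3% lower with SAHA. With Smarcb1-RE 1 rose and 8 fell, beside 39.2% of all tested genes called higher and 38.6% lower, and with scaling by library totals 5 rose and 4 fell. Map1lc3b and Gabarapl1, ubiquitin-like proteins of autophagy, rose by 0.51 and 0.46 with SAHA, and Atg7, the activating enzyme of the conjugation, fell by 0.21. Atg12, a conjugation protein, rose by 0.23 with Smarcb1-RE. The one large change was that of the ubiquitin-conjugating enzyme gene Ube2l3, which fell by 1.09 with Smarcb1-RE and rose by 0.17 with SAHA.

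For each member the gene outside the list with the most similar profile was found by the root mean square difference of log2 CPM, each gene centred on its own mean over the 9 libraries, among 11129 genes. The closest was Mef2d for Gbp7 (0.032), followed by Rars for Irgm1 (0.037), Tap2 for Gbp3 (0.042) and 5031439G07Rik for Irgm2 (0.042). For Gbp4 it was Aftph (0.044), for Gbp6 Zfp949 (0.053), for Gbp2 Nxn (0.056), for Igtp Thoc1 (0.063) and for Gbp9 Dpy19l3 (0.064). Iigp1 had no neighbour closer than Syn1 (0.095). With 9 libraries in 3 groups such likeness reflects mainly the 3 group means. Tap2, a subunit of the peptide transporter of antigen presentation, is the only one of these on a list of interferon-gamma targets used here, and it fell with Smarcb1-RE by 0.35 as Gbp3 did.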

How the data were processed

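Total RNA of 9 T15 cultures was sequenced by the authors from strand-specific libraries. The values are each gene's estimated count before any normalization, as the authors deposited them. The submitters' processing notes name Salmon 0.14.1, DESeq2 1.22.2, FastQC 0.11.8, MultiQC 1.7 and GRCm38. Salmon divides reads shared by paralogs by estimation. Here counts were rounded, and 99.3% of identifiers were matched to GENCODE M21. edgeR 4.0.16 (R 4.3.3) was used with TMM factors, filterByExpr (minimum count 10) and 1 quasi-likelihood fit of 3 groups. P-values were adjusted by Benjamini-Hochberg over all 13697 tested genes, with a threshold of 0.05. SE is the log2 fold change divided by the root of F. Replicates are described as biological by the study. An exact permutation test of 3 against 3 cannot go below p = 0.1, so none was used. Paralogs were also tested as sums. The scripts were tested on simulated data. Members, gene lists and tests were chosen with earlier results of these data known. Named genes were the members, genes of the GTPase, signalling, regulatory factor and inhibitor lists that a result turns on, the 2 largest and the smallest change of each other list per comparison, Smarcb1 and the nearest gene of each member. Iigp1, Gbp4, Gbp6 and Gbp9 promoters and protein sequences were not used here. One gene of the signalling list is not reported here and is left out of its counts. Replicate numbers do not pair libraries: same-number correlations of deviations averaged -0.02 over 9 pairs. The alternatives were DESeq2 1.42.0, other scalings and filters, separate fits, a replicate block, thinned counts, stricter calls and leaving out each library. Genes near the clusters and the sum with Gm43302 were added after the data were seen.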

Additional observations from a re-analysis of the deposited data

How the results depend on the processing

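Over all alternatives but a minimum fold change, 540 combinations of a member, a comparison and an alternative were run, of which 537 kept their side of the threshold and 3 lost the call. These were Gbp2 with Smarcb1-RE at an adjusted p under 0.01 (its p was 0.0124) or with library totals (-0.08), and Gbp6 between Smarcb1-RE and SAHA with library totals (-0.07). The sign of an uncalled value changed 10 times. With library totals only, the median of all genes moved from 0.01 to 0.17 with Smarcb1-RE, and its calls from 5371 higher and 5282 lower to 6474 and 4143. Signs then changed for Jak2 (0.01), Psmb8 (0.01), Atg3 (0.04), Map1lc3b (0.14), Gabarap (0.14) and Sqstm1 (0.02) with Smarcb1-RE, and for Ptpn2 (0.15), Tapbp (0.02), Casp8 (0.01), Atg3 (0.03) and the chromosome 5 sum (0.02) between Smarcb1-RE and SAHA. The chromosome 3 sum became called with Smarcb1-RE with library totals (0.21) and with at least 10 counts in every library (0.10).

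When a log2 fold change of at least 1 in size was required, members called higher and lower numbered 4 and 0 with SAHA, 1 and 1 with Smarcb1-RE, and 0 and 4 between Smarcb1-RE and SAHA. Over the pathway lists the numbers were 16 and 1, 14 and 5, and 5 and 9. The shares of all tested genes at that minimum are not given here, so these counts set neither the members nor the lists apart. That minimum ended the calls of the chromosome 3 sum (0.69 with SAHA, -0.64 between Smarcb1-RE and SAHA), the chromosome 5 sum (0.93 with Smarcb1-RE, -0.14 between both), the sum of Igtp, Irgm1 and Irgm2 (0.38 and -0.84) and the Tgtp sum (0.91 and -0.33). The chromosome 5 contrast of Smarcb1-RE with SAHA was also lost with at least 10 counts in every library (-0.12), at an adjusted p under 0.01 and, leaving out single libraries, in 5 of 9 fits, with values from -0.21 to -0.11. A shorter ISRE core, GAAANNGAA, was in 7.13% of all promoter windows.

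A replicate block changed no call of a member: 8 rose with SAHA, and 5 rose and 5 fell with Smarcb1-RE. Same-number correlations ran from -0.128 to 0.037, so the numbers are names only. Depth did not limit these genes, and thinning all libraries to the smallest changed no call of a member.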

Other observations

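SAHA 1 had the lowest level of its group for 9 of the 10 members, the exception being Gbp3, which was lowest in SAHA 2. Over all tested genes SAHA 1 was lowest for 38.4%. By the chi-square of counts per gene between replicates, control 1 was the library furthest from its group (12.5 and 14.1 from control 2 and control 3, which were 3.47 apart), and SAHA 1 was 4.55 and 4.51 from SAHA 2 and SAHA 3. Coefficients of variation of the members ran up to 16.5% in SAHA (Iigp1), up to 8.50% in control (Gbp3) and up to 3.99% in Smarcb1-RE libraries (Gbp2). Ifng was also lowest in SAHA 1, at 166 CPM against 183 and 175, and so were Stat2 (146 against 186 and 174) and Irf7 (13.9 against 20.6 and 21.3). Each of these values is above every control library.

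Tested genes outside the family near the clusters are given by their counts, without a test against the clusters. Around the proximal chromosome 11 cluster, 11 of 22 tested genes outside the family rose and 3 fell with Smarcb1-RE (median log2 fold change 0.51), beside 39.2% and 38.6% of all tested genes. Within the cluster Irgm1 fell by 1.13 and Ifi47 by 0.60, 9930111J21Rik2 rose by 0.39, and 9930111J21Rik1 was not called (0.22, adjusted p = 0.102). Around the chromosome 3 cluster, 4 of 5 such genes fell with Smarcb1-RE and 4 of 5 rose with SAHA. Over all tested genes 38.6% fell with Smarcb1-RE and 32.6% rose with SAHA. Within the cluster Gbp2 and Gbp3 fell with Smarcb1-RE (-0.24 and -0.35), while Gbp5 and Gbp7 rose (0.27 and 0.34). With SAHA Gbp2, Gbp5 and Gbp7 rose and Gbp3 was not called (0.02). Gvin1, a very large GTPase, rose by 2.41 with Smarcb1-RE and was not called with SAHA (0.00, adjusted p = 0.998), but 99.7% of its sequence words are shared with other genes.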
